A study of Mus musculus with 12 samples.

Results

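The genes described here carry a mouse symbol that starts with Zfp and a number, the naming class of zinc finger proteins. They were chosen by level: a level of 10 CPM, the count of a gene scaled to a common library total, had to be passed in at least 2 of the 12 libraries. Of 370 genes with such a symbol, 184 passed, among 8273 genes of any name that did. The CPM values that chose them took no account of the group, and the levels at the threshold are a description only. Just inside it lay Zfp771, Zfp1 and Zfp606, whose library with the second-highest value held 10.1, 10.6 and 10.6 CPM. Just outside it lay Zfp949, Zfp661 and Zfp846, at 9.87, 9.59 and 9.45 CPM. Of the 186 genes left out, 48 had no count in any library and 97 had a mean under 1 CPM. Of the 184, 142 passed in all 12 libraries, 22 in some libraries with and some without β-estradiol, 16 only in libraries without it and 4 only in libraries with it. The last 20 genes had to differ between those libraries to be chosen, so counts are also given for the other 164.

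Zinc finger proteins hold short folds around a zinc ion. In the C2H2 kind a row of such fingers reads DNA, each finger touching a few bases. Many mouse C2H2 proteins also carry a KRAB domain, which binds the corepressor TRIM28 and, through it, the histone methyltransferase SETDB1 and heterochromatin proteins. These KRAB proteins are known for silencing retroelements and protecting imprints. The CCCH kind instead binds AU-rich messenger RNA and recruits the CCR4-NOT deadenylase, which shortens the poly(A) tail.

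RNA was sequenced from G1E-ER4, a mouse erythroid line without its own GATA-1 that carries GATA-1 fused to the estrogen receptor ligand-binding domain, so that β-estradiol (E2) switches GATA-1 on and starts erythroid maturation. Thiamet-G (TMG) inhibits O-GlcNAcase (OGA), the enzyme that takes the sugar O-GlcNAc off proteins. The 4 groups of 3 libraries were untreated cells (Ctrl), 10 µM TMG, 1 µM E2, and both agents (TMG_E2), with 30 h of treatment. All groups were grown with erythropoietin, stem cell factor and puromycin, no vehicle is named for Ctrl, and all libraries came from this 1 line. The labels do not say that replicates were grown apart. A p-value here speaks only of the scatter of libraries within groups, which can be technical scatter. For each gene that scatter was estimated from all 4 groups together, and not from the groups compared alone.

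Depth ran from 17589380 to 23178721 counts a library, and the 184 Zfp genes took 0.674 to 0.815% of them. The TMG_E2 libraries scattered more than the others: between pairs of replicates the chi-square per degree of freedom was 8.66 to 13.1 in TMG_E2 and 2.41 to 4.17 in the other groups. The lowest share of Zfp counts, 0.674%, was in TMG_E2 replicate 3. Counts without each TMG_E2 library are given with the comparison of TMG_E2 and E2. On the first principal component, with 94.8% of the variance, the 6 libraries with E2, alone or with TMG, lay apart from the other 6. The labels call the cells embryonic stem cells, but Pou5f1, Sox2 and the stem cell marker Zfp42 were at 0 in all 12 libraries, Nanog reached at most 0.294 CPM, and only Dppa4, at up to 83.3 CPM, was measured at a clear level. The 8 erythroid markers summed to 498 to 535 CPM in Ctrl, 715 to 746 in TMG, 37000 to 39900 in E2 and 37300 to 42000 in TMG_E2. Most of the sum in E2 was Hbb-bs (17900 to 20100 CPM) and Hba-a2 (14900 to 15800 CPM). Epb42 overlapped, at 1.26 to 1.56 CPM in Ctrl and 1.12 to 1.85 in E2, and the other listed markers were higher in every E2 library. The 4 mast cell markers summed to 79.5 to 104 CPM in Ctrl and 0.273 to 0.878 in E2. Of 5 megakaryocyte markers, Nbeal2 was at 75.5 to 83.7 CPM in Ctrl and 21.9 to 27.6 in E2, Gp9 at 0.535 to 1.28 and 5.17 to 7.52, Itga2b at 5.20 to 7.20 and 5.32 to 6.04, Pf4 at most at 2.16 in any library, and Gp1bb at 0. The lymphoid markers stayed at or under 1.25 CPM in sum in every library. Of 4 granulocyte markers, Elane and S100a8 were at 0 and Mpo reached 0.045 CPM, and only Coro1a, also known from other leukocytes, was measured, at 16.8 to 22.1 CPM in Ctrl, 1.51 to 1.91 in E2 and 2.33 to 3.09 in TMG_E2. The erythroid and mast cell sums move with E2 in each comparison of libraries with and without it. In TMG, the erythroid sum was higher than in Ctrl in every library. Most of that rise was Hba-a2, at 219 to 244 CPM in Ctrl and 383 to 423 in TMG. Klf1 overlapped, at 94.1 to 99.3 and 98.9 to 111 CPM, and the other listed erythroid markers were higher in every TMG library. The mast cell sum was 79.2 to 95.3 CPM in TMG, overlapping Ctrl, and its genes split. Cpa3 (-0.87 ± 0.24 log2; edgeR adjusted p = 0.042, groups overlapping) and Ms4a2 (-0.64 ± 0.18 log2; edgeR adjusted p = 0.0491) fell. Il1rl1 was at 56.7 to 61.2 CPM in Ctrl and higher in TMG, at 66.2 to 72.3, and Fcer1a reached at most 0.104 CPM. Coro1a rose in TMG_E2 against E2 (0.67 ± 0.20 log2; edgeR adjusted p = 0.0356). The part of these markers in the Zfp results was not tested, and in bulk samples fewer cells of a type and less RNA per cell cannot be told apart.

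The median level of the Zfp genes was below that of all genes tested. Per length and depth (the unit TPM), the median over the 184 genes was 10.5 TPM, with a range of 2.64 to 229, against 29 TPM over all 8273 genes tested. The highest was Zfp207 at 229 TPM, a partner of the spindle checkpoint protein BUB3, followed by the RNA-binding protein Zfp106 at 85.9 TPM and the mRNA decay factor Zfp36l2 at 77.7 TPM. Coding sequences were searched for the spacing of cysteines and histidines of the C2H2 and CCCH fingers and for a KRAB pattern. By that search 99 of the 184 held C2H2 fingers without KRAB, 80 held KRAB and C2H2 fingers, and 2, Zfp36l1 and Zfp36l2, held CCCH fingers. The remaining 3 were Zfp330 and Zfp703, with neither pattern, and Zfp781, with KRAB but no fingers. Other domains were not searched for. Of the KRAB genes with fingers, 80 of 180 (44.4%) passed the threshold, and of those with C2H2 fingers without KRAB 99 of 165 (60.0%). The median level was 7.53 TPM for KRAB genes and 15.7 TPM for genes with C2H2 fingers without KRAB. In the same order, the median number of fingers was 12 (3 to 27) and 7 (1 to 37). Among KRAB genes Zfp655 (65.2 TPM), Zfp809 (47.0 TPM) and Zfp445 (46.0 TPM) were the highest. These levels are descriptions, since a gene's level chose it.

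**Figure D1:**
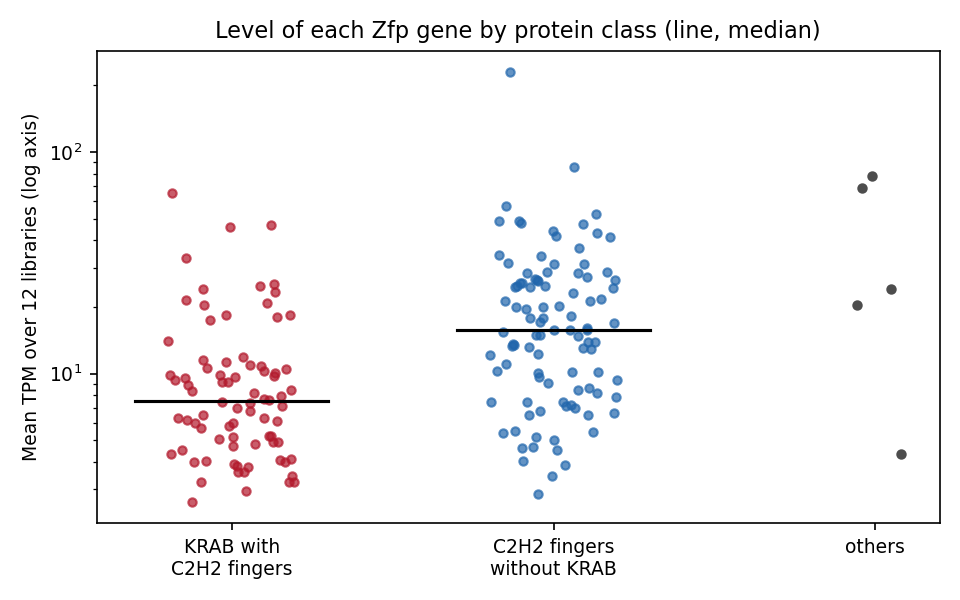
Mean TPM over the 12 libraries (log axis) of each of the 184 Zfp genes, by the class its coding sequence falls in. Each point is 1 gene, and the topmost point is Zfp207. The line is the class median, 7.53 TPM for 80 KRAB genes and 15.7 TPM for 99 genes with C2H2 fingers without KRAB. The other 5 genes have no line.

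The sequences just upstream of 4 genes named in the results are shown as a description, and no result depends on these sequences. Zfp655 and Zfp346 rose most with E2, Zfp36l1 fell with E2, and Zfp12 fell with TMG. They come from RefSeq on GRCm38.p6, run 5′ to 3′ on the gene's strand, and stop at the first base of the annotated gene. Capitals mark a match to 1 of 4 GATA motifs on either strand, namely AGATAA or its variant AGATAG, and in the same way TGATAA or its variant TGATAG.
Zfp655, chr5:145231492-145231594, plus strand: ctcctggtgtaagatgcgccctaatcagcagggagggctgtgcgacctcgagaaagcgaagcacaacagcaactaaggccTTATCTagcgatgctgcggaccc
Zfp346, chr13:55105059-55105270, plus strand: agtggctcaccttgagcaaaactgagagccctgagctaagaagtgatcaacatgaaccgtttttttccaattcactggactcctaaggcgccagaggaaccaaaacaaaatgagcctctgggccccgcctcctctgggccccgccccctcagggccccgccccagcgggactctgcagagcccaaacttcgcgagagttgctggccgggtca
Zfp36l1, chr12:80113014-80113263, minus strand: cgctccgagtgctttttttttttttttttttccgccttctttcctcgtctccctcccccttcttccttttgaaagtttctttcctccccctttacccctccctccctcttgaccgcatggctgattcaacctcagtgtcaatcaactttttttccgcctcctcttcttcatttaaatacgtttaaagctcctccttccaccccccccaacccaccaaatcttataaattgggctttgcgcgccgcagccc
Zfp12, chr5:143234913-143235137, plus strand: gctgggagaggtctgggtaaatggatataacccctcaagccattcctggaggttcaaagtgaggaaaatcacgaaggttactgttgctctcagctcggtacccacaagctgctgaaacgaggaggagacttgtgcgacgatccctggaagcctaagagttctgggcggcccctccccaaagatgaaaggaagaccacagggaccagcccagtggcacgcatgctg
Of these windows, the one of Zfp655 holds 1 match and the other 3 none. Over full windows of 250 bases, a match was found in 31 of 189 windows of the Zfp genes (16.4%; 151 of the 184 genes had an entry), in 16.2% of windows of the genes tested and in 26.5% of all RefSeq windows. By call in E2 against Ctrl, the share was 13.8% of windows for Zfp genes called higher, 17.7% for those called lower and 17.8% for those not called. A match is a description of these letters and not a binding site.

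E2 against Ctrl asked what switching on GATA-1 did to the Zfp genes. Expression changed in both directions in much of the class: 58 of the 184 genes rose and 79 fell (edgeR, adjusted p under 0.05), 74.5% in all, while 82.7% of all 8273 genes tested were called, 41.5% higher and 41.2% lower. The median size of the change was 0.327 on the log2 scale, against 0.412 over all genes. By at least 2-fold, 4 Zfp genes rose and 15 fell, against 718 and 718 of all 8273 genes. Of these Zfp genes, 1 of the 4 passed the level threshold only with E2, and 8 of the 15 only without it. Among the 164 genes that passed the level threshold both with and without E2, 54 rose and 63 fell. Scaling by library size alone moved the median of all genes by -0.0984 and gave 46 higher and 91 lower, but no Zfp gene called in the fit reported here changed sign. KRAB genes gave 28 higher and 31 lower of 80, and genes with C2H2 fingers without KRAB 29 higher and 45 lower of 99. By number of C2H2 fingers, 7 rose and 14 fell of 32 genes with 1 to 4, 21 rose and 21 fell of 55 with 5 to 9, and 29 rose and 41 fell of 92 with 10 or more. In 69 of the 184 genes the counts were fractional in at least 1 library, because reads were divided among genes they match, and of these 18 rose and 34 fell.

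**Figure D2:**
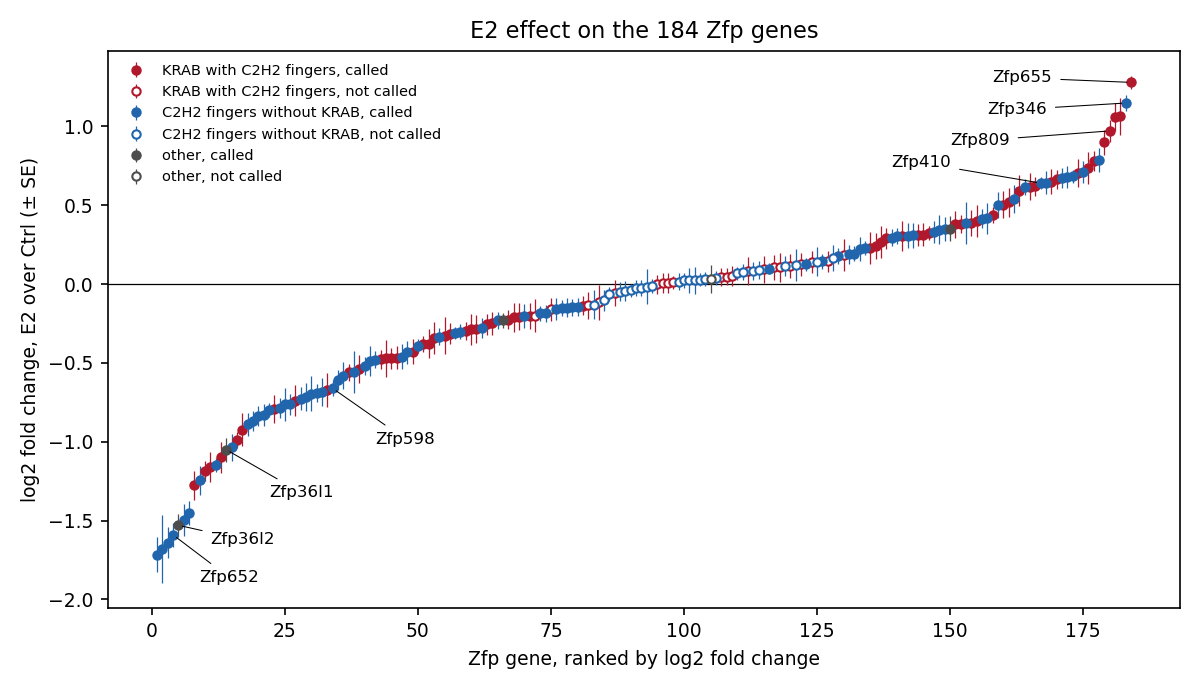
The log2 fold change of E2 over Ctrl for the 184 Zfp genes, ranked, with bars of 1 SE. Filled points passed an adjusted p of 0.05 in edgeR (58 higher, 79 lower), open points did not, and colours give the class. Genes with C2H2 fingers without KRAB run from -1.72 to 1.15 and KRAB genes from -1.27 to 1.28.

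The mRNA decay factors fell together. Zfp36l2, a CCCH protein known to sustain early erythroid progenitors, measured 282, 219 and 255 CPM in Ctrl, 262, 266 and 265 in TMG, 84.4, 84.7 and 92.4 in E2 and 87.7, 100.4 and 96.2 in TMG_E2. The groups with and without E2 did not overlap, and the TMG libraries lay within the range of the Ctrl libraries. Its mean fell from 252 ± 31.1 to 87.2 ± 4.51 CPM (SD, n = 3), a log2 fold change of -1.53 ± 0.07 (SE; edgeR adjusted p = 1.41e-12). Zfp36l1, its close relative, measured 56.0, 59.4 and 66.3 CPM in Ctrl, 55.0, 58.9 and 63.9 in TMG, 28.5, 29.6 and 29.5 in E2 and 30.0, 36.4 and 34.9 in TMG_E2. Every library with E2 was below every library without it. The log2 fold change of Zfp36l1 was -1.05 ± 0.08 (edgeR adjusted p = 5.86e-10), and its upstream window, shown above, holds no GATA match. Zfp36, the founding member of this family, passed 10 CPM in 1 library only, at 11.5 CPM, and was not tested, like Zfp36l3, which reached at most 0.0569 CPM. Genes of the CCR4-NOT complex that they recruit were called in both directions. Of its 13 listed subunits and partners 6 rose, the deadenylase Cnot6 most (0.64 ± 0.04 log2), and 6 fell, the antiproliferative adaptor Tob1 most (-0.65 ± 0.09 log2), with a median of -0.0273. The share called was 92.3%, against 82.7% of all genes.

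Of 10 Zfp genes with roles in RNA binding, splicing or ribosomes, 2 rose (20.0%, against 41.5% of all genes), 5 fell (50.0%, against 41.2%) and 3 were not called. In TMG_E2 against TMG the same list gave 5 higher and 4 lower. Zfp346, which binds double-stranded RNA, measured 35.2, 35.6 and 33.0 CPM in Ctrl, 34.1, 35.1 and 34.3 in TMG, 77.0, 78.8 and 74.0 in E2 and 72.1, 79.5 and 71.0 in TMG_E2. The libraries with E2 stood far above the others, and TMG libraries overlapped their controls both with and without E2. Its log2 fold change was 1.15 ± 0.05 (edgeR adjusted p = 5.58e-13), with the upstream window given above. The other that rose was Zfp638, a matrin-like nuclear protein (0.13 ± 0.04 log2). Zfp598, the ubiquitin ligase that marks collided ribosomes, measured 134, 125 and 128 CPM in Ctrl, 124, 120.2 and 132 in TMG, 81.6, 77.3 and 86.2 in E2 and 73.3, 79.2 and 81.8 in TMG_E2. All 6 libraries with E2 were below all 6 without, and the log2 fold change was -0.66 ± 0.05 (edgeR adjusted p = 1.69e-09). Both listed factors of large ribosomal subunit assembly fell as well, Zfp593 with a log2 fold change of -0.76 ± 0.07 and Zfp622 with -0.28 ± 0.06. Zfp385a, an RNA-binding protein known in megakaryocytes, fell from 102 ± 6.07 to 55.8 ± 4.80 CPM, and Zfp106 from 593 ± 5.45 to 451 ± 8.13 CPM. Zfp207, the highest per length, was at 344 ± 9.97 CPM in Ctrl and 351 ± 12 CPM in E2 and did not pass the test (edgeR adjusted p = 0.533).

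The listed DNA-binding and chromatin factors without KRAB moved in both directions. Of 19 listed, 15 were tested, and 6 rose, 5 fell and 4 were not called, with a median size of 0.186 against 0.412 for all genes. Zfp410, whose human counterpart activates the gene of the remodeller CHD4 and is known for its part in fetal globin silencing, measured 69.3, 69.2 and 66.2 CPM in Ctrl, 72.8, 72.6 and 72.5 in TMG, 108, 106 and 105 in E2 and 111, 112 and 108 in TMG_E2. Libraries with E2 lay above all others, at a log2 fold change of 0.64 ± 0.04 (edgeR adjusted p = 1.94e-11). Zfp217, a corepressor known as an oncogene in human tumours, rose from 77.0 ± 1.38 to 124 ± 1.94 CPM, and Zfp143, an activator bound at many promoters, from 34.0 ± 1.58 to 41.7 ± 2.48 CPM. Zfp148, known as ZBP-89 and as a partner of GATA-1, measured 76.0, 70.6 and 73.1 CPM in Ctrl and 58.8, 60.2 and 58.1 in E2. The groups did not overlap, and the log2 fold change was -0.31 ± 0.04 (edgeR adjusted p = 1.46e-06). Zfp281, its paralog, measured 60.3, 56.1 and 56.7 CPM in Ctrl and 58.7, 59.5 and 58.5 in E2. Its groups overlapped, the difference of 0.03 ± 0.04 log2 did not pass the test, and its sign turned to -0.07 when scaled by library size alone. Zfp318, known for its part in immunoglobulin D expression, fell from 43.4 ± 1.37 to 30.3 ± 1.28 CPM (-0.52 ± 0.06 log2). Zfp91, a ubiquitin ligase whose counts are divided with an overlapping read-through gene, rose by 0.10 ± 0.04 log2 (edgeR adjusted p = 0.0218). That call was lost with library size scaling (0.00013 log2, adjusted p = 0.998 in edgeR), without the filter, and without E2 replicate 1 (0.0853 log2) or Ctrl replicate 2 (0.0830 log2).

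Of the 10 Zfp genes with the largest rises, 7 were KRAB genes. Zfp655, a KRAB protein known to bind the signalling protein VAV1, measured 82.9, 81.2 and 81.7 CPM in Ctrl, 86.0, 85.4 and 83.6 in TMG, 187, 206 and 203 in E2 and 215, 225 and 216 in TMG_E2. The 6 libraries with E2 ran from 187 to 225 CPM and the 6 without from 81.2 to 86.0 CPM. Its mean rose from 81.9 ± 0.865 to 199 ± 10.1 CPM (log2 fold change 1.28 ± 0.04, edgeR adjusted p = 6.35e-15), and its window above holds the match TTATCT. Zfp809, which silences retroviral genomes through TRIM28, measured 27.4, 29.8 and 31.0 CPM in Ctrl, 32.6, 34.3 and 32.3 in TMG, 60.4, 55.1 and 57.8 in E2 and 73.4, 62.5 and 60.1 in TMG_E2. No library with E2 overlapped one without, and the log2 fold change was 0.97 ± 0.07 (edgeR adjusted p = 6.29e-10). Zfp810, its neighbour on chromosome 9, rose by 1.06 ± 0.09, and Zfp746, a repressor degraded through parkin, by 0.90 ± 0.08. Zfp426 rose by 0.78 ± 0.06, Zfp182 by 0.74 ± 0.10, and Zfp948 by 1.06 ± 0.12, the last a gene that passed the level threshold only with E2. Zfp513 (0.79 ± 0.08) and Zfp672 (0.71 ± 0.07) had C2H2 fingers without KRAB.

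Of 6 genes listed as KRAB genes of imprints or retroelements, 4 were tested, all with the KRAB pattern, and 2 rose and 2 fell. Zfp445, which protects imprints, rose from 164 ± 1.03 to 213 ± 9.07 CPM (0.38 ± 0.06 log2), beside Zfp809. Zfp568, which represses a placental promoter of Igf2, measured 59.6, 55.3 and 59.9 CPM in Ctrl and 29.6, 28.8 and 29.6 in E2. Its groups were far apart, and it fell, at -0.99 ± 0.05 log2 (edgeR adjusted p = 3.14e-12). Zfp932, a repressor of endogenous retroviruses, fell as well (-0.32 ± 0.07 log2). Zfp57, the best known imprint protector, had no count in any library, and Zfp708, in which the search found fingers but no KRAB pattern, reached at most 4.79 CPM. The largest falls among KRAB genes were Zfp534, from 22.6 ± 0.163 to 9.38 ± 1.06 CPM (-1.27 ± 0.09 log2), and Zfp7, from 32.8 ± 1.57 to 14.4 ± 1.03 CPM (-1.18 ± 0.06 log2). Both have reads divided among genes, in 11 and 10 of the 12 libraries.

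Of 17 listed genes of the silencing machinery that KRAB proteins recruit, the TRIM28 and HUSH pathways, all were tested. Of these 11 fell (64.7%, against 41.2% of all genes) and 3 rose (17.6%, against 41.5%), with a median of -0.185 against -0.000765 for all genes. Trim28, the KRAB corepressor, measured 640.0, 625 and 644 CPM in Ctrl, 635, 604 and 632 in TMG, 317, 315 and 318 in E2 and 284, 286 and 301 in TMG_E2. Every library with E2 was lower than every library without, at -1.01 ± 0.03 log2 (edgeR adjusted p = 2.25e-14). Setdb1, the methyltransferase it recruits, fell from 598 ± 12.7 to 472 ± 20.6 CPM (-0.34 ± 0.04 log2). The heterochromatin proteins split, with Cbx3 (-0.81 ± 0.04) and Cbx1 (-0.59 ± 0.05) lower and Cbx5 (0.24 ± 0.06) higher. The HUSH subunits Fam208a (TASOR, 0.65 ± 0.06) and Mphosph8 (0.58 ± 0.06) rose, while the third HUSH subunit, Pphln1, fell (-0.31 ± 0.04).

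Of the 10 Zfp genes with the largest falls, 7 had C2H2 fingers without KRAB. Zfp652, whose human counterpart binds the corepressor CBFA2T3, measured 90.8, 80.8 and 82.7 CPM in Ctrl, 77.2, 74.7 and 76.8 in TMG, 27.3, 27.8 and 29.3 in E2 and 27.7, 26.1 and 19.9 in TMG_E2. Libraries with and without E2 did not overlap, and the log2 fold change was -1.59 ± 0.08 (edgeR adjusted p = 2.45e-12). Its counts were fractional in all 12 libraries, so that its level is uncertain. Zfp710 measured 27.6, 23.9 and 25.9 CPM in Ctrl and 9.17, 7.76 and 7.99 in E2. It fell at -1.64 ± 0.10 log2 (edgeR adjusted p = 5.65e-11), with whole counts in every library. Zfp623 (-1.72 ± 0.11), Zfp771 (-1.68 ± 0.21), Zfp41 (-1.50 ± 0.10), Zfp239 (-1.45 ± 0.08) and Zfp768 (-1.25 ± 0.09) were the other 5. These 5 passed the level threshold only in libraries without E2 and so had to be lower with E2. Their means in E2 ran from 2.64 CPM for Zfp771 to 9.38 CPM for Zfp239, against 8.44 and 25.7 CPM in Ctrl.

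**Figure D3:**
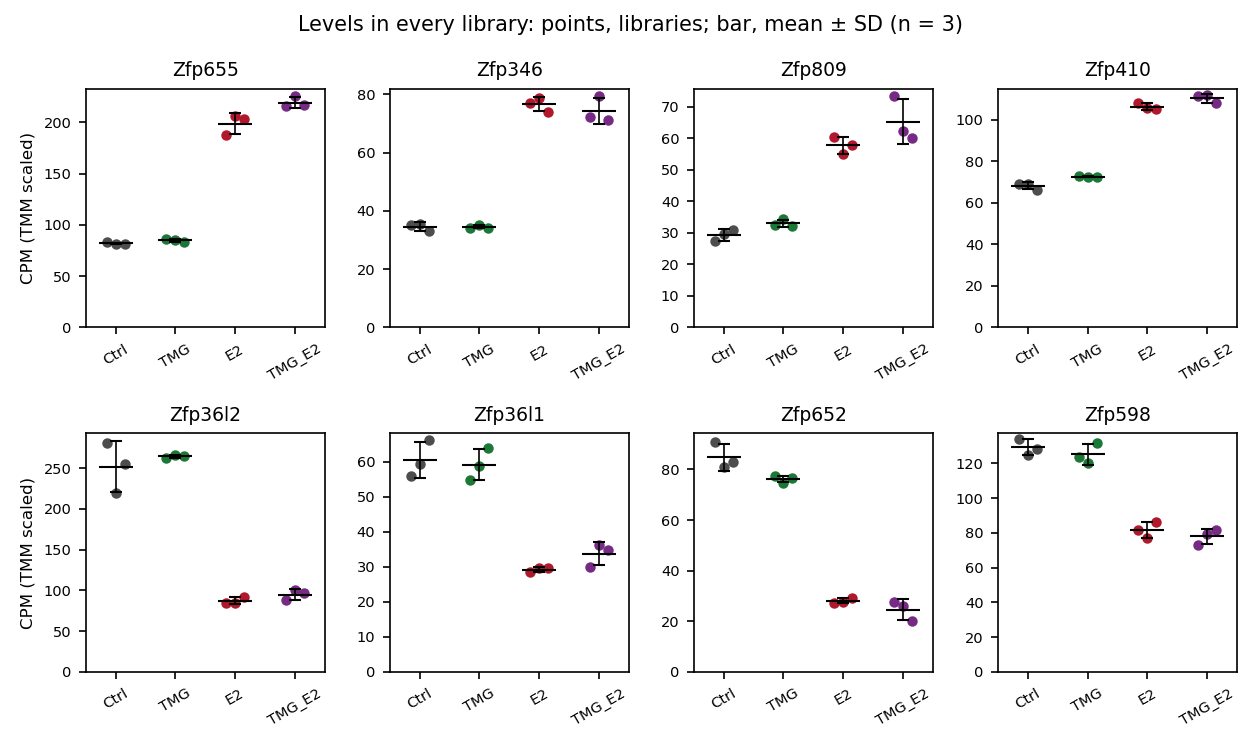
Levels of 8 Zfp genes in every library, in CPM scaled by TMM, for the 4 groups. Points are libraries and bars the mean ± SD (n = 3); the top row shows genes that rose with E2 and the bottom row genes that fell, and in each gene the libraries with E2 lie apart from those without.

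Zfp genes sit in clusters of related copies, and chromosome 7 alone held 40 of the 184. RefSeq positions on GRCm38.p6 were used, and neighbours of the name pattern were joined when less than 250000 bases apart. By this rule 13 clusters held at least 3 of the 184, 66 genes in all. A further 90 genes were each the only one of the 184 at their place. Some of these had Zfp neighbours that did not pass the level threshold, such as Zfp715 in a cluster of 5 Zfp genes. In E2 against Ctrl, 6 of the 13 clusters held genes that rose and genes that fell, 6 held called genes of 1 direction, and 1 held none called. The clusters with Zfp397 on chromosome 18 and with Zfp628 and Zfp329 on chromosome 7 held only 1 called gene each, which shows no shared direction. Over all genes tested, 41.5% were called higher and 41.2% lower. Whether neighbours move together beyond these shares was not tested. The cluster on chromosome 9 from 22055411 to 22307814 had its 3 genes, Zfp653, Zfp809 and Zfp810, all higher. On chromosome 17 from 21383707 to 22456689, 4 of 7 KRAB genes rose and none fell, though 3 of the 4 (Zfp948, Zfp943 and Zfp758) passed the level threshold only with E2. On chromosome 7 from 127233061 to 127885996, a cluster without KRAB genes, 5 of 6 fell: Zfp771, Zfp768, Zfp629 (-0.89 ± 0.07), Zfp553 (-0.84 ± 0.06) and Zfp668 (-0.46 ± 0.08). Of these, Zfp771 and Zfp768 passed the level threshold only without E2. The sixth, Zfp646, measured 93.2 ± 1.66 CPM in Ctrl and 91.8 ± 2.57 in E2. On chromosome 7 from 29768552 to 30169775, 5 of 7 fell, with Zfp260 (-1.04 ± 0.08) and Zfp568 lowest, while Zfp790 rose (0.59 ± 0.10). Of these, Zfp260 passed the level threshold only in the 6 libraries without E2 and so had to be lower with E2. Zfp74, also in this cluster, passed it in 3 libraries only. A further cluster on chromosome 17, from 32765496 to 33631716, held 9 of the genes, of which 5 rose and 3 fell. On chromosome 13 from 67038594 to 67827000, 8 of 24 Zfp genes passed the level threshold, and of these 3 rose and 1 fell. Close copies share sequence, so reads may have been divided between neighbours.

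The effect of E2 was measured a second time in cells with TMG, between libraries of other groups than in E2 against Ctrl. Both comparisons come from 1 fit to all 12 libraries and share its gene filter, scaling and estimate of scatter. In TMG_E2 against TMG, 66 Zfp genes rose and 77 fell (77.7%; 82.7% of all genes tested, 40.9% higher and 41.8% lower). Of the 137 genes called in E2 against Ctrl, 125 (91.2%) were called in the same direction here, 87.4% of the 143, and none in the opposite one. Over all genes tested these shares were higher, 94.0% and 93.9%, with 7 genes called in opposite directions. Across the 184 genes the Pearson correlation of the log2 fold changes was 0.985, and 0.989 across all genes, and genes are not independent replicates. The 4 genes that passed the level threshold only with E2 rose in both comparisons, and the 16 that passed only without it fell in both. Their choice required such a difference, so their match is no support. Of the 142 genes that passed in all 12 libraries, 54 rose and 53 fell in TMG_E2 against TMG. Of the 22 that passed in some libraries of each kind, 8 rose and 8 fell. Scaling by library size alone gave 46 higher and 85 lower of the 184. Zfp655 had a log2 fold change of 1.36 ± 0.04, Zfp948 of 1.15 ± 0.11, Zfp810 of 1.11 ± 0.09, Zfp346 of 1.11 ± 0.05 and Zfp809 of 0.99 ± 0.07. The lowest were Zfp623 (-1.77 ± 0.12), Zfp652 (-1.62 ± 0.08), Zfp239 (-1.61 ± 0.08), Zfp771 (-1.53 ± 0.22) and Zfp710 (-1.51 ± 0.10). Of the genes just named, Zfp948 passed the level threshold only with E2, and Zfp623, Zfp239 and Zfp771 only without it. Zfp36l2 fell at -1.48 ± 0.07, Zfp36l1 at -0.82 ± 0.08, Zfp598 at -0.68 ± 0.05 and Zfp148 at -0.29 ± 0.04, and Zfp410 rose at 0.60 ± 0.04. Trim28 (-1.10 ± 0.03) and Setdb1 (-0.59 ± 0.04) fell, among 12 of the 17 silencing genes that fell, while 3 rose. Zfp281 did not pass the test (-0.05 ± 0.05; edgeR adjusted p = 0.338), and fell when scaled by library size alone (-0.145 log2; edgeR adjusted p = 0.0114).

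**Figure D4:**
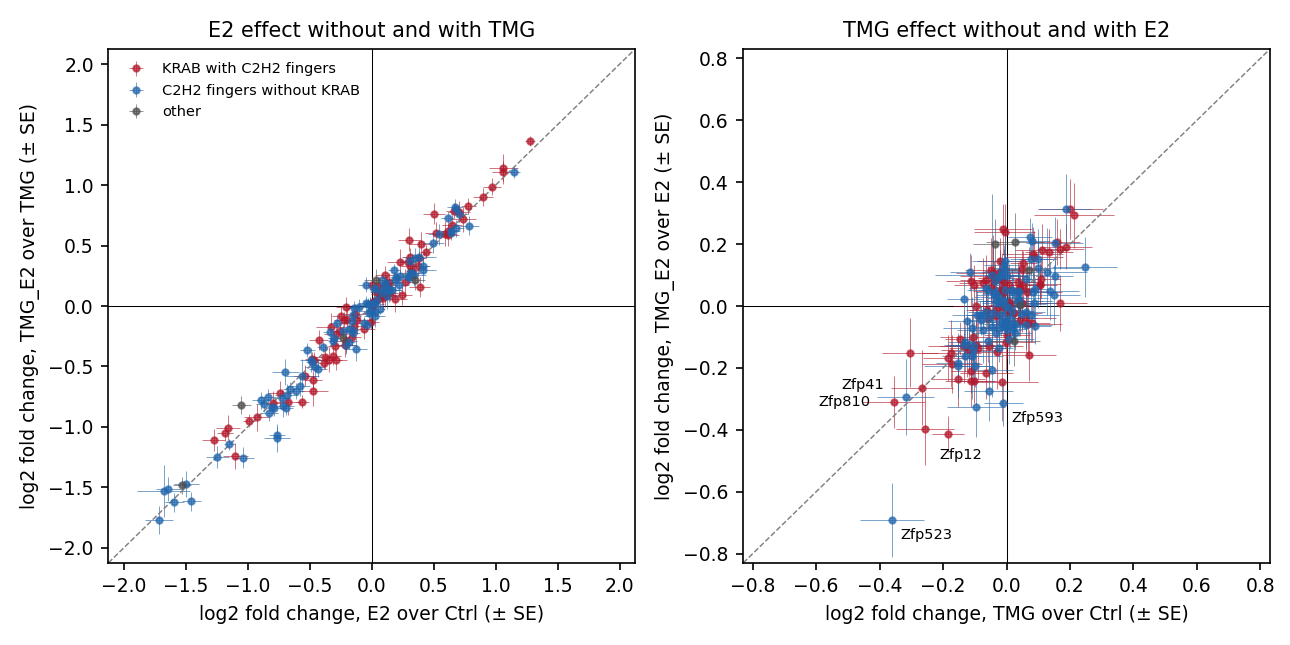
Left, the log2 fold change of E2 over Ctrl (x) and of TMG_E2 over TMG (y) for the 184 Zfp genes, with bars of 1 SE; points lie along the dashed line of equality. Right, TMG over Ctrl (x) and TMG_E2 over E2 (y), where most genes sit near 0 and Zfp523 is lowest on both axes.

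TMG against Ctrl asked what a block of O-GlcNAc removal did before GATA-1 was switched on. Few Zfp genes moved: none rose and 4 fell, 2.17% against 5.15% of all genes tested (3.01% higher, 2.14% lower). At an unadjusted p under 0.05 there were 21, 14 of them lower, against 1563 of all 8273 genes tested, 718 of them lower. DESeq2 called 0 Zfp genes higher and 2 lower, against 426 of all genes. The 4 were all small and close to the threshold. Zfp523, the mouse counterpart of human ZNF76 and a paralog of Zfp143, measured 17.2, 15.3 and 19.9 CPM in Ctrl and 13.4, 14.3 and 13.1 in TMG. The TMG libraries lay below the 3 of Ctrl, at -0.36 ± 0.10 log2 (edgeR adjusted p = 0.0476). Zfp12, a KRAB gene, measured 45.5, 50.0 and 48.6 CPM in Ctrl and 42.8, 42.8 and 41.1 in TMG. Its groups did not overlap, at -0.18 ± 0.05 log2 (edgeR adjusted p = 0.0466). Zfp810 fell at -0.36 ± 0.10 (edgeR adjusted p = 0.0474) and Zfp41 at -0.32 ± 0.09 (edgeR adjusted p = 0.0475), from means of 9.88 and 12.6 CPM in Ctrl. Each of the 4 calls was lost in 7 to 9 of 14 alternative fits and left-out libraries. Without Ctrl replicate 1 there was 1 call, without Ctrl replicate 2 there were 2, without Ctrl replicate 3 there was 1, and without TMG replicate 1, 2 or 3 there were 0. Zfp36l1 (-0.03 ± 0.07), Zfp36l2 (0.07 ± 0.07), Zfp148 (-0.06 ± 0.04), Zfp281 (0.00 ± 0.04), Zfp410 (0.09 ± 0.04), Zfp91 (-0.04 ± 0.04), Zfp598 (-0.05 ± 0.05), Trim28 (-0.03 ± 0.03) and Setdb1 (0.11 ± 0.04) did not pass the test.

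TMG_E2 against E2 asked the same in maturing cells. Here 4 Zfp genes rose and 7 fell, 5.98% against 12.8% of all genes tested (5.61% higher, 7.14% lower). With the replicate number as a block, 7 rose and 12 fell, the 11 among them, and whether the numbers pair the libraries was not settled. Zfp523 measured 10.0, 9.30 and 11.6 CPM in E2 and 6.0, 7.17 and 5.99 in TMG_E2. The highest TMG_E2 library lay below the lowest of E2, at -0.69 ± 0.12 log2 (edgeR adjusted p = 0.00162), the largest change among the 184 in either comparison with TMG. Zfp12, whose upstream window is shown above, measured 31.2, 32.2 and 34.3 CPM in E2 and 23.4, 24.9 and 25.3 in TMG_E2. Its groups were apart, at -0.41 ± 0.06 log2 (edgeR adjusted p = 0.000335). Zfp593, a small protein of ribosome assembly, measured 13.3, 14.3 and 14.2 CPM in E2 and 10.8, 12 and 10.8 in TMG_E2. It fell at -0.31 ± 0.07 log2 (edgeR adjusted p = 0.00987), with all 3 TMG_E2 libraries below those of E2. Zfp523, Zfp12 and Zfp593 were called in all 14 alternative fits and left-out libraries.

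The other 8 calls of TMG_E2 against E2 were less stable, each lost in 3 to 8 of the 14. Lower were Zfp386 (-0.40 ± 0.12), Zfp444 (-0.33 ± 0.10), Zfp810 (-0.31 ± 0.08) and Zfp316 (-0.24 ± 0.07). Zfp386 passed the level threshold only without E2, and in TMG_E2 its mean was 4.83 CPM. Zfp316 and Zfp12 are neighbours on chromosome 5, from 143249695 to 143270031 and from 143235138 to 143248834. Both have divided reads, in 11 and 10 libraries, and how far the reads of one reach the other was not tested. Higher were Zfp958 (0.31 ± 0.10), Zfp874b (0.22 ± 0.06), Zfp407 (0.21 ± 0.06) and Zfp655 (0.14 ± 0.04). Zfp655, already the strongest to rise with E2, went from 199 ± 10.1 to 219 ± 5.33 CPM, with no overlap between libraries. The number of rises was 0 without E2 replicate 1, while without E2 replicate 2, E2 replicate 3 or TMG_E2 replicate 2 there were 2, without TMG_E2 replicate 1 there were 7, and without TMG_E2 replicate 3 there were 8. The falls numbered 3 without E2 replicate 2 and 4 without E2 replicate 3, and 5 to 8 without each of the other 4 libraries.

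**Figure D5:**
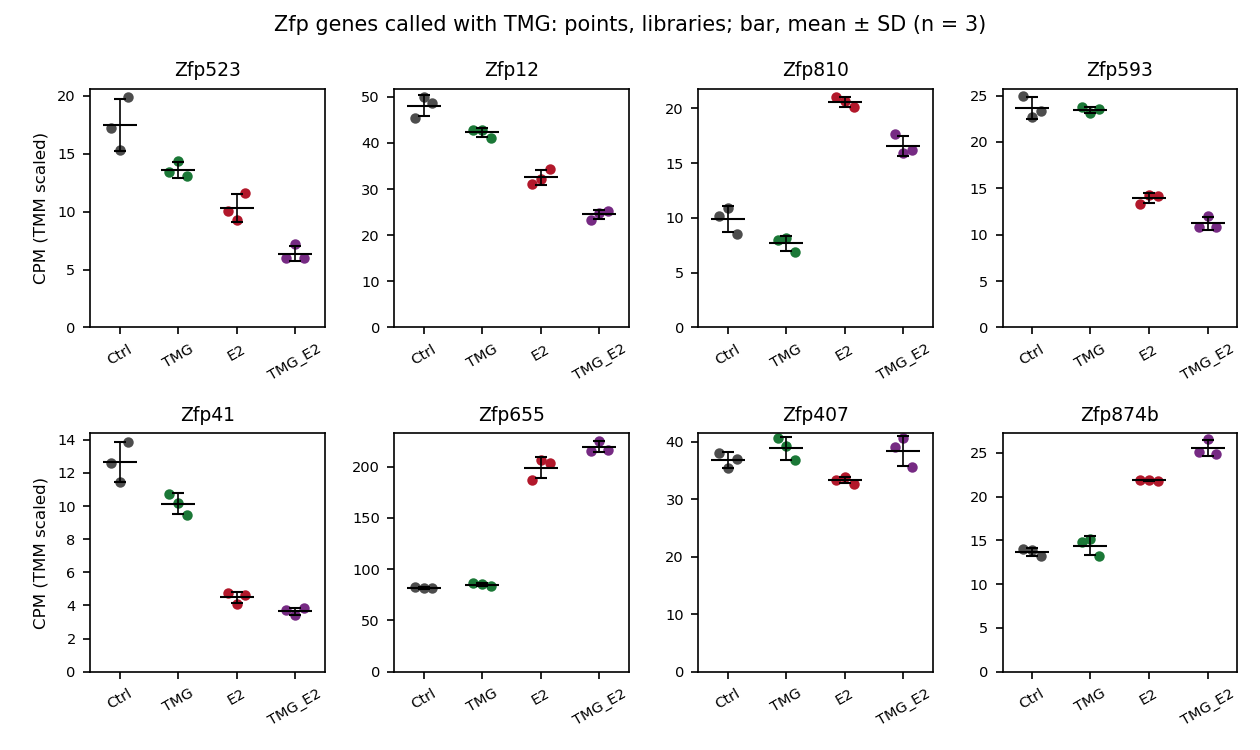
Levels of 8 Zfp genes called in a comparison with TMG, in CPM scaled by TMM, in every library. Points are libraries and bars the mean ± SD (n = 3); Zfp523 and Zfp12 were lower with TMG both without and with E2, and Zfp655 was higher with TMG in the libraries with E2.

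Without and with E2 the effect of TMG was measured between separate libraries, within the same fit to all 12 libraries. Of the 4 genes called in TMG against Ctrl, 3 (Zfp523, Zfp12 and Zfp810) were called in the same direction in TMG_E2 against E2, 75.0% of the 4 and 27.3% of the 11. Over all genes tested, 193 were called in the same direction in both, 45.3% and 18.3% of those called. Across the 184 genes the Pearson correlation of the log2 fold changes was 0.694, and 0.482 across all genes tested. Zfp41 measured 4.73, 4.11 and 4.65 CPM in E2 and 3.72, 3.42 and 3.83 in TMG_E2. These groups did not overlap either, but the difference of -0.29 ± 0.12 log2 did not pass the test (edgeR adjusted p = 0.125). Among genes followed in every comparison, Zfp36l1 was at 29.2 ± 0.596 CPM in E2 and 33.7 ± 3.35 in TMG_E2, which did not pass the test (edgeR adjusted p = 0.114) but did with the replicate block (0.206 log2, edgeR adjusted p = 0.0187), without the filter (adjusted p = 0.0456) and without TMG_E2 replicate 1 (adjusted p = 0.0281). Zfp36l2 (0.12 ± 0.07), Zfp148 (-0.04 ± 0.04), Zfp281 (-0.08 ± 0.05), Zfp410 (0.06 ± 0.04), Zfp91 (0.04 ± 0.04) and Zfp598 (-0.07 ± 0.05) did not pass the test. Trim28 fell slightly (-0.13 ± 0.04; edgeR adjusted p = 0.0263), a call lost without the filter, with only the groups compared, and without E2 replicate 1, 2 or 3 or TMG_E2 replicate 1 or 2 (adjusted p of 0.0547 to 0.0969). Setdb1 did not pass the test (-0.13 ± 0.04; edgeR adjusted p = 0.0579) but did with the block (adjusted p = 0.0227), with library size alone (0.0412), without the filter (0.0498), without TMG_E2 replicate 1 (0.00676) and without E2 replicate 2 (0.0398).

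The interaction asked whether TMG acted differently in maturing cells, as the change of TMG_E2 over E2 less that of TMG over Ctrl. No Zfp gene was called in either direction by edgeR, against 0.931% of all genes tested (0.266% higher, 0.665% lower), and none by DESeq2. An unadjusted p under 0.05 was reached in edgeR by 913 of all 8273 genes tested, 550 of them lower. Of the Zfp genes there were 6, of which 4 were higher and 2 lower, and DESeq2 also gave 4 higher and 2 lower. In edgeR they were Zfp36l1 (0.24 ± 0.11), Zfp729b (0.23 ± 0.09), Zfp207 (0.12 ± 0.06) and Zfp217 (0.12 ± 0.05) on the higher side, and Zfp593 (-0.30 ± 0.10) and Zfp12 (-0.23 ± 0.08) on the lower, named after their values were seen. For Zfp523 the difference between the 2 effects of TMG was -0.33 ± 0.16 log2 (edgeR adjusted p = 0.462). The median SE of an interaction was 0.102 on the log2 scale for the Zfp genes. Differences well above that size, such as that of Zfp523, did not pass the test. An uncalled interaction is thus not shown to be absent at this depth and number of libraries. For the other genes followed in every comparison the interaction lay between -0.25 ± 0.06 for Setdb1, which did not pass the test (edgeR adjusted p = 0.0779), and 0.08 ± 0.05 for Zfp91. Setdb1 passed the test with the replicate block (-0.247 log2, edgeR adjusted p = 0.0208), without the filter (adjusted p = 0.0202), without TMG_E2 replicate 1 (adjusted p = 0.0107) and in DESeq2 (adjusted p = 0.0273).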

How the data were processed

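Estimated counts and TPM per gene were deposited by the authors from RSEM 1.2.22, per the series design text, which also names FastQC 0.11.2, EdgeR 3.14.0, R 3.2.2 and the mouse build GRCm38/mm10. Bowtie2 is named in the submitters' processing notes. Libraries were stranded and paired-end, and the strand setting of the counting was not given in the sources used here. RSEM divides reads that match several genes, which gives fractional counts and affects related Zfp genes. TPM, deposited by the authors, was used only for levels between genes. Expected counts were rounded, genes under 10 CPM in all but 1 library were left out, and the quasi-likelihood test of edgeR 4.0.16 (limma 3.58.1, R 4.3.3) was fitted to all 12 libraries with TMM scaling and group means. P-values were adjusted by Benjamini-Hochberg over 8273 genes, with a threshold of 0.05. CPM in the text is scaled by TMM, except where it chose genes, and the SE is the log2 fold change divided by the square root of the F statistic. DESeq2 1.42.0, other scalings and filters, and left-out libraries were alternatives. Deviations of same-numbered libraries from their group means were correlated across genes. The correlations were 0.108, 0.278 and 0.112 in E2 against Ctrl and 0.0876, 0.0295 and 0.188 in TMG against Ctrl. They were 0.285, 0.182 and 0.201 in TMG_E2 against E2, and 0.525, 0.149 and 0.412 in TMG_E2 against TMG. These ranges overlap, and libraries of different numbers were not compared, so whether the numbers pair the libraries was not settled. The fit reported has no replicate block, and a fit with it is given as an alternative. Finger and KRAB patterns were searched in translated GENCODE M21 coding sequences, since protein tables were not used here, and gene positions are those of RefSeq on GRCm38.p6. Genes were named by rule for the largest called changes whose groups did not overlap, 10 each way in E2 against Ctrl and fewer in the other comparisons. A fixed set was followed in all comparisons. Further genes were named from the role lists, the clusters and the highest levels. The members and gene lists were chosen with earlier results of these data known. The fit was tested on simulated data.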

Additional observations from a re-analysis of the deposited data

How the results depend on the processing

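Of 1291 values under other settings for 89 named results, 1170 kept their direction and side of the threshold, 86 lost the call, 14 gained one and 21 changed sign. For TMG_E2 against E2 the count of Zfp genes called lower was 11 with library size alone, 12 with the replicate block, 4 with DESeq2, 4 with only the groups compared and 3 among genes with whole counts. The count called higher was 8 without the filter, 7 with the block and 1 with only the groups compared. Left-out libraries gave 3 to 8 lower and 0 to 8 higher. For TMG against Ctrl the count lower was 2 without the filter, 0 with filterByExpr, 7 with the block, 2 with DESeq2, 7 with only the groups compared, 2 with TMMwsp scaling (added after seeing the data) and 0 to 2 with left-out libraries. Whether the replicate numbers pair these libraries was not settled. Among the 115 genes with whole counts, 45 were lower in E2 against Ctrl and 46 in TMG_E2 against TMG; fewer genes enter there. The block gave 59 higher and 80 lower in E2 against Ctrl, 67 and 78 in TMG_E2 against TMG, and 0 and 0 in the interaction. The sign of Zfp281 changed in E2 against Ctrl with library size alone (-0.0687) and in TMG against Ctrl with RLE size factors (-0.00129), library size alone (-0.0179), filterByExpr (-0.000954), the replicate block (-0.000378), DESeq2 (-0.00131), only the groups compared (-0.00171) and left-out libraries (-0.0197 to 0.033). Left-out libraries also turned the sign of uncalled values: Zfp36l1 (-0.0909 to 0.0364) and Zfp36l2 (-0.0196 to 0.157) in TMG against Ctrl, Zfp91 in TMG_E2 against E2 (-0.0028 to 0.0685), and the interactions of Zfp36l2 (-0.0394 to 0.137), Zfp148 (-0.00874 to 0.0447) and Zfp598 (-0.0651 to 0.0207). Apart from the number of genes or libraries entered, the cause was not tested. The interaction uses all 4 groups, so that a fit of only the groups compared is the same fit. At 3 libraries a group, small effects of TMG limit what can be called.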

Other observations

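Other zinc finger families named for a further domain were measured in the same fit. Of 29 Zbtb genes, which pair C2H2 fingers with a BTB domain, 10 rose and 12 fell in E2 against Ctrl (edgeR, adjusted p under 0.05), 75.9% against 82.7% of all genes tested. Zbtb4, which binds methylated DNA, went from 4.55 ± 0.785 to 11.1 ± 0.996 CPM (SD, n = 3), a log2 fold change of 1.29 ± 0.13 (SE). Zbtb7a, a fetal globin repressor also known as LRF, rose with 0.51 ± 0.07, and Zbtb18 with 0.67 ± 0.06. Zbtb12 fell from 19.4 ± 1.88 to 4.11 ± 0.096 CPM (-2.24 ± 0.10 log2), and Zbtb38, another reader of methylated DNA, fell with -0.91 ± 0.09. These genes were chosen after their values were seen.

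Of 13 Zkscan and Zscan genes, which carry a SCAN domain, 4 rose and 7 fell in E2 against Ctrl, with Zkscan14 (0.84 ± 0.09) highest and Zkscan17 (-0.85 ± 0.06) lowest. In TMG against Ctrl none of the 42 genes of both families was called by edgeR, against 5.15% of all genes tested. An unadjusted p under 0.05 was reached by 4 of them, all lower, and by 1563 of all 8273 genes, 718 of them lower. In TMG_E2 against E2, where 12.8% of all genes were called, 1 Zbtb gene rose, and 1 Zbtb gene and Zkscan5 (-0.29 ± 0.06; edgeR adjusted p = 0.0055) fell.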
